A study of Mus musculus with 126 samples.

Results

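Cells restrain their own division with a small set of genes. Described here, in mouse embryonic stem cells that lacked DNA methyltransferases, were given a histone deacetylase inhibitor, or both, are 9 such brakes or their regulators. They were taken by symbol from the deposited count table and are Cdkn1a, Cdkn1b, Cdkn2a, Cdkn2b, Cdkn2c, Cdkn2d, Trp53, Mdm2 and Ccng1, which makes 9 of 23420 genes in the table. All 9 also passed the filter on low counts that left 15822 genes for testing. They were picked as brakes on the cell cycle described as responding to deacetylase inhibitors, though Mdm2 acts against p53 and is no brake itself.

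The series combines chromatin assays with RNA-seq, and the 8 RNA-seq libraries are used here, out of 126 samples. Wild type cells were of the J1 strain, and the triple knockout (TKO) cells lack Dnmt1, Dnmt3a and Dnmt3b, the enzymes that write and copy DNA methylation. Each genotype received Trichostatin A (TSA), labelled as 5 ng/µl, or the solvent DMSO at 0.0033%, for 36 h, which gives 4 groups of 2 libraries called biological replicates. All cells were kept on gelatin in medium with serum and the self-renewal factor LIF. The labels do not say how many clones the TKO cells represent, so genotype and clone cannot be told apart.

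Cyclin-dependent kinases (CDKs) drive the cell through its cycle when a cyclin is bound, and 2 families of inhibitor proteins hold them back. The CIP/KIP proteins p21 (Cdkn1a) and p27 (Cdkn1b) bind complexes of CDK and cyclin. The INK4 proteins p16 (from Cdkn2a), p15 (Cdkn2b), p18 (Cdkn2c) and p19 (Cdkn2d) bind the D-cyclin partners Cdk4 and Cdk6 and thereby keep the retinoblastoma protein active. Cdkn2a also encodes Arf in another reading frame, which restrains Mdm2. Mdm2 is the ubiquitin ligase that marks p53 (Trp53) for destruction and is itself a target gene of p53, as are Cdkn1a and Ccng1, the gene of cyclin G1. Embryonic stem cells have a short G1 phase and are known for low levels of several of these inhibitors.

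The start regions differed widely in CpG content, the substrate of the enzymes missing in TKO cells. In the RefSeq promoter table (GRCm38.p6, the same build as the submitters' mm10), 9 of 9 genes were matched to 12 windows of 300 bases, each from 250 bases before a start to 50 after it. Over all 32851 windows in that table the median was 7 CpG. The 250 bases before the start are printed for Cdkn1a and Cdkn1b, which moved in opposite directions with TSA, and for Cdkn2c, which rose most, 5′ to 3′ on the gene's strand in lower case, with GC boxes (GGGCGG) in capitals.
Cdkn1a, upstream start, chr17:29090729-29090978, plus strand: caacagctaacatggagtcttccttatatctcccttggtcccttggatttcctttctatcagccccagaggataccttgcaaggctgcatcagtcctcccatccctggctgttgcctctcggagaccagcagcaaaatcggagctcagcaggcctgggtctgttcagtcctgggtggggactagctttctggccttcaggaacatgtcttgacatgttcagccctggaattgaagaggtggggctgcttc
Cdkn1a, downstream start, chr17:29093519-29093768, plus strand: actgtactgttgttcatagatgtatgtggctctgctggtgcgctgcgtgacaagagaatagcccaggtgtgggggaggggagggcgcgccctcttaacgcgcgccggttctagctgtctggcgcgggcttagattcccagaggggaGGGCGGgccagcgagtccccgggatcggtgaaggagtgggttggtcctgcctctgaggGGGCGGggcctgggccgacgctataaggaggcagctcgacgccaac
Cdkn1b, chr6:134920151-134920400, plus strand: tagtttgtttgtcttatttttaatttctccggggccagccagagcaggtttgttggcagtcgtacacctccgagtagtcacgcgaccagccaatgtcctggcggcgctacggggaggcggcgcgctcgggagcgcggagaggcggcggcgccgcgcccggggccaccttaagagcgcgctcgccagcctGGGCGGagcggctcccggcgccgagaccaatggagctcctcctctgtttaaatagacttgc
Cdkn2c, upstream start, chr4:109666757-109667006, minus strand: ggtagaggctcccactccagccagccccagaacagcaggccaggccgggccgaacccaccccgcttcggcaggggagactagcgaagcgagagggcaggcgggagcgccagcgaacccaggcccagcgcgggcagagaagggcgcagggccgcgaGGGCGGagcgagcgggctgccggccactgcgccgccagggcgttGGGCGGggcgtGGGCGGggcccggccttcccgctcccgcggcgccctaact
Cdkn2c, downstream start, chr4:109665373-109665622, minus strand: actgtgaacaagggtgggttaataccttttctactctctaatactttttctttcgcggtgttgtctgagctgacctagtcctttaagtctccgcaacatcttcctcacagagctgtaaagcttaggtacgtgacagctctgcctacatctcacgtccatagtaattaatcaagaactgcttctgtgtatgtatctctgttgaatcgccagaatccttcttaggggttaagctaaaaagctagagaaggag
The 2 starts of Cdkn1a had 2 and 23 CpG in their 300-base windows, and those of Cdkn2c had 33 at the upstream and 8 at the downstream start. Cdkn1b had 30. Among the genes not printed, Cdkn2a had 45 CpG at the Arf start and 12 at the p16 start, Mdm2 35, Cdkn2d 22, Cdkn2b 18, Ccng1 14 and Trp53 10. The GC box was searched on both strands along with CCAAT and TATAAA, each counted on its own even where letters are shared, and these occurred in 35.7%, 37.4% and 13.6% of all windows. The downstream Cdkn1a window held 2 GC boxes and the upstream window held 0, while the upstream Cdkn2c window held 4 boxes and the downstream window 0. A strict p53 consensus, with 2 half-sites of 10 bases, no spacer and 0 bases off, was also searched after the data had been seen. It matched 3 of 32851 windows and 0 of the 12 windows of these genes, which says only that the pattern in that form is not in these letters. The upstream Cdkn1a window misses it by 1 base. With 1 base off allowed, a tolerance chosen after that near-miss had been seen, 18 of all windows matched, and 1 of them was this Cdkn1a window. Because of how the tolerance was chosen, that match is a description of these letters and supports nothing else.

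The deposited exons place Cdkn1a on chromosome 17 from 29090986 to 29100722 (4 exons, 2026 bases in all) and Cdkn1b on chromosome 6 from 134920401 to 134925525 (3 exons, 2405 bases). Cdkn2a lies on chromosome 4 from 89274473 to 89294619 (4 exons, 1136 bases), and Cdkn2b follows on the same strand from 89306289 to 89311032 (2 exons, 1393 bases). Cdkn2c lies on chromosome 4 from 109660876 to 109665372 (2 exons, 1106 bases), so its counts do not cover the first exon of the upstream start. Cdkn2d is on chromosome 9 from 21288464 to 21291209, Trp53 on chromosome 11 from 69580359 to 69591873, Mdm2 on chromosome 10 from 117688905 to 117710716 and Ccng1 on chromosome 11 from 40748552 to 40755286. The counts of Cdkn2a cover both first exons, 89294334 to 89294619 for Arf and 89281986 to 89282192 for p16, so the 2 transcripts cannot be told apart. No exon base of these 9 genes is shared with another gene of the table.

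Total counts ran from 13280631 to 15542527 per library, and 3 counts correspond to 0.193 to 0.226 CPM, the counts of a gene scaled to a common library size. In TKO against wild type cells in DMSO, the log2 changes of the targeted genes were -1.78 for Dnmt1, -3.00 for Dnmt3a and -3.72 for Dnmt3b, lower as the labels say. The 14 pluripotency markers summed to 5147 to 5415 CPM in wild type cells in DMSO and 2804 to 3091 with TSA. In TKO cells they summed to 5938 to 6327 CPM in DMSO and 2931 to 3217 with TSA, with none at 0 in any group. Of the other marker lists, the 7 genes of the 2-cell-like state summed to 11.1 to 11.3, 122 to 211, 7.04 to 8.73 and 269.8 to 354 CPM in these 4 groups in turn. The 8 trophoblast markers summed to 57.9 to 63.8, 209 to 224, 46.0 to 68.1 and 261 to 263 CPM, with the placental hormone gene Prl3d1 at 0 except in wild type cells in DMSO. The 8 neural markers summed to 342 to 423, 179 to 211, 299.7 to 331 and 165 to 171 CPM, and the 7 mesoderm markers to 17.3 to 27.04, 16.2 to 21.5, 9.10 to 9.16 and 22.2 to 24.6 CPM, with none at 0. The mesoderm sum overlapped between DMSO and TSA in wild type cells. The other sums of this paragraph, and the mesoderm sum in TKO cells, moved with TSA, as did the results below, and their part in those results was not tested. In bulk samples, a change in the share of cells of a kind and a change in RNA per cell cannot be told apart.

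TSA raised 5 of the 9 genes and lowered 2 in wild type cells, and gave the same counts, 5 and 2, in TKO cells. Cdkn1a, Cdkn2a, Cdkn2b, Cdkn2c and Mdm2 rose, Cdkn1b and Trp53 fell, and Cdkn2d and Ccng1 were not called. A call is an adjusted p below 0.05 in edgeR's quasi-likelihood test over all genes tested. Of all tested genes, 27% were called higher and 25.9% lower in wild type cells, and 30.8% higher and 27.9% lower in TKO cells. The share of the 9 genes called higher was above these background shares, and the share called lower was near them. The median log2 change of the 9 genes was 0.77 in wild type and 0.88 in TKO cells, against 0.01 and 0.04 over all genes tested. The 9 genes are few and were picked as described responders, with earlier results of these data known. The comparisons with all tested genes are therefore descriptions only. The 2 libraries of each group are the replicates behind every mean, SD and test below, and levels are normalised CPM.

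**Figure D1:**
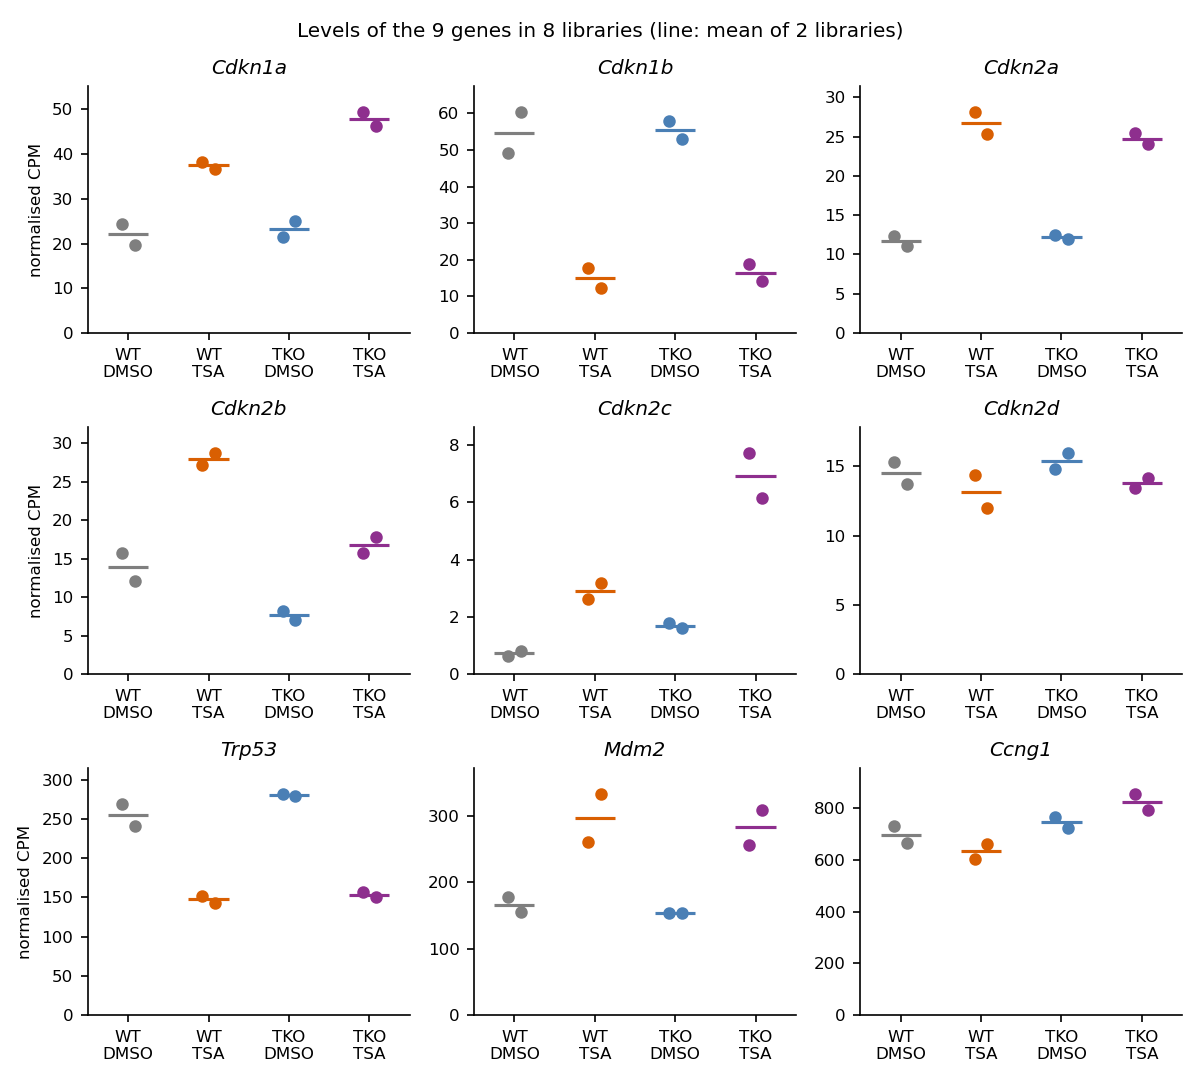
Normalised CPM of the 9 genes (vertical axes, each from 0) in the 8 libraries, with points for libraries and lines for the mean of 2 libraries per group. Cdkn1b and Trp53 are lower in all 4 TSA libraries than in any DMSO library, and Cdkn1a, Cdkn2a, Cdkn2b, Cdkn2c and Mdm2 are higher in all 4. For Cdkn2b the margin is narrow, with the lowest TSA library at 15.8 and the highest DMSO library at 15.7 CPM. The share of all tested genes separated in this way was not counted.

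Among the CIP/KIP genes, Cdkn1a and Cdkn1b moved in opposite directions. Cdkn1a, which slows the cycle after DNA damage and other stress, stood at 24.5 and 19.6 CPM in wild type DMSO and at 38.3 and 36.7 with TSA. In TKO cells it stood at 21.4 and 24.9 CPM in DMSO and at 49.3 and 46.2 in TSA. Every TSA library lay above every DMSO library. The log2 change was 0.77 ± 0.14 (SE; edgeR adjusted p = 0.000908) in wild type and 1.04 ± 0.14 (adjusted p = 8.11e-05) in TKO cells. The genotype made no called difference to Cdkn1a in DMSO, at 0.07 (95% interval -0.24 to 0.38). In TSA both TKO libraries were above both wild type libraries, by 0.35 on the log2 scale (95% interval 0.06 to 0.63), and the edgeR adjusted p was 0.0909.

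Cdkn1b, whose protein holds back cyclin E with Cdk2, had the steepest fall of the 9 genes. It measured 49.1 and 60.3 CPM in wild type DMSO against 17.7 and 12.4 in wild type TSA. In TKO cells the values were 57.9 and 53.02 CPM in DMSO against 18.9 and 14.1 in TSA. The groups did not overlap, with the lowest DMSO library at 49.1 and the highest TSA library at 18.9 CPM. Cdkn1b fell 3.62-fold in wild type cells, by 1.85 on the log2 scale (SE 0.19, edgeR adjusted p = 3.69e-05), and by 1.75 (SE 0.19, adjusted p = 2.24e-05) in TKO cells. Between the genotypes its level differed by 0.02 in DMSO (95% interval -0.36 to 0.40) and by 0.12 in TSA (-0.30 to 0.55), both on the log2 scale and not called.

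All 3 INK4 genes other than Cdkn2d rose with TSA. Cdkn2a, the gene of p16 and Arf, read 12.4 and 11.02 CPM in wild type DMSO and 28.1 and 25.3 with TSA. In TKO cells it read 12.4 and 12.0 CPM in DMSO and 25.4 and 24.1 in TSA. These are separate ranges with TSA and without it, and nearly the same ranges in the 2 genotypes. The log2 change with TSA was 1.19 ± 0.14 (edgeR adjusted p = 7.62e-05) in wild type and 1.02 ± 0.14 (adjusted p = 0.000115) in TKO cells. The genotype difference of Cdkn2a was 0.06 (95% interval -0.26 to 0.38) in DMSO and -0.11 (-0.40 to 0.18) in TSA, not called in either.

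Cdkn2b, whose last exon ends 11669 bases upstream of the Arf start of Cdkn2a, differed with both genotype and TSA. Its levels were 15.7 and 12.1 CPM in wild type DMSO and 27.2 and 28.7 with TSA. In TKO cells they were lower, at 8.21 and 7.05 CPM in DMSO and 15.8 and 17.8 in TSA. TKO cells in TSA were just above the higher wild type library in DMSO. With TSA the log2 change was 1.01 ± 0.16 (edgeR adjusted p = 0.000504) in wild type and 1.13 ± 0.17 (adjusted p = 0.000248) in TKO cells. Cdkn2b was lower in TKO than in wild type cells, with log2 differences of -0.86 (SE 0.18, edgeR adjusted p = 0.00616) in DMSO and -0.74 (SE 0.16, adjusted p = 0.00944) in TSA. Without the second TKO DMSO library the first of these was not called (-0.76, adjusted p = 0.064), and without the first TKO TSA library neither was the second (-0.65, adjusted p = 0.0608). The summed CPM of the 12 mesenchymal or fibroblast markers also differed by genotype. In wild type cells the sum was 502 to 821 CPM in DMSO and 481 to 713 with TSA. In TKO cells it was 259 to 340.02 and 259 to 311, with Dcn at 0 with TSA. Such a sum can be set by a few abundant genes. The 9 endoderm markers summed to 14.9 to 15.7 and 21.8 to 24.7 CPM in wild type and to 27.6 to 30.5 and 42.8 to 49.7 in TKO cells, with Ttr at 0 in wild type cells. Their part in the genotype differences of Cdkn2b and Cdkn2c was not tested.

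Cdkn2c, the gene of p18, was the least abundant of the 9 and had the highest fold changes. Its counts were 9 and 10 reads in wild type DMSO and 43 and 47 with TSA, and in TKO cells 26 and 22 without and 114 and 98 with TSA. As levels these are 0.642 and 0.81, 2.62 and 3.19, 1.78 and 1.60, and 7.71 and 6.15 CPM, and no 2 of the 4 groups overlapped. TSA raised it by 1.99 ± 0.34 (edgeR adjusted p = 0.000681) in wild type and by 2.03 ± 0.27 (adjusted p = 0.000101) in TKO cells, on the log2 scale. TKO cells were higher than wild type by 1.25 ± 0.25 in TSA (adjusted p = 0.00657) and by 1.22 ± 0.37 in DMSO (adjusted p = 0.0375). The DMSO difference rests on few reads and is not firm: it was not called with DESeq2 (adjusted p = 0.101), with limma-voom (0.0721), in a fit of those 4 libraries alone (0.0625), or without any 1 of them (0.064 to 0.193). The difference in TSA was not called without the first wild type TSA library (1.11, adjusted p = 0.0754).

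Cdkn2d, the gene of the fourth INK4 protein, stayed within a narrow range. It measured 15.3 and 13.7 CPM in wild type DMSO and 14.4 and 12.0 with TSA, and in TKO cells 14.8 and 15.9 without and 13.5 and 14.1 with TSA. The log2 change with TSA was -0.14 (95% interval -0.49 to 0.21) in wild type and -0.15 (-0.50 to 0.19) in TKO cells, not called in either, with edgeR adjusted p of 0.48 and 0.416. These intervals leave out changes of the size seen for the other INK4 genes.

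Trp53 and Mdm2, which form a feedback loop, also moved apart. Trp53 stood at 268 and 241 CPM in wild type DMSO and at 152 and 143 with TSA. In TKO cells it stood at 281 and 279 CPM in DMSO and at 157 and 149.994 in TSA. The DMSO libraries all lay above the TSA libraries. Its log2 change was -0.79 ± 0.09 (edgeR adjusted p = 6.54e-05) in wild type and -0.87 ± 0.09 (adjusted p = 1.94e-05) in TKO cells. Between genotypes Trp53 differed by 0.14 (95% interval -0.06 to 0.33) in DMSO and by 0.06 (-0.14 to 0.25) in TSA, not called in either.

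Mdm2 rose where Trp53 fell. Its libraries read 177 and 155 CPM in wild type DMSO and 260.4 and 332 with TSA. In TKO cells they read 153 and 154 CPM in DMSO and 256 and 309 in TSA. The second TSA library was the higher one in both genotypes, and both TSA libraries were above all DMSO libraries. TSA raised Mdm2 by 0.83 ± 0.13 (edgeR adjusted p = 0.000423) in wild type and by 0.88 ± 0.13 (adjusted p = 0.000198) in TKO cells. The genotype differences were -0.12 (95% interval -0.41 to 0.17) in DMSO and -0.07 (-0.35 to 0.22) in TSA.

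Ccng1, whose product binds the phosphatase PP2A and acts on Mdm2, was the most abundant of the 9 and had no called response to TSA. It stood at 730.03 and 666 CPM in wild type DMSO and 604 and 662 with TSA. In TKO cells it stood at 767 and 724 without and 853 and 795 with TSA. With TMM scaling, TSA libraries were below DMSO libraries in wild type cells and above them in TKO cells, and the closest wild type pair was 666 against 662 CPM. The wild type direction turned with the scaling, to 0.06 under total counts and 0.01 under the upper quartile, where TKO cells measured 0.29 (edgeR adjusted p = 0.014) and 0.22 (adjusted p = 0.052). The log2 changes were -0.14 ± 0.09 (edgeR adjusted p = 0.217) and 0.15 ± 0.09 (adjusted p = 0.196). In TSA, TKO cells were higher than wild type by 0.38 ± 0.09 (adjusted p = 0.0158). That call was lost without the first wild type TSA library (0.32, adjusted p = 0.166) and without the first TKO TSA library (0.33, adjusted p = 0.0798).

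**Figure D2:**
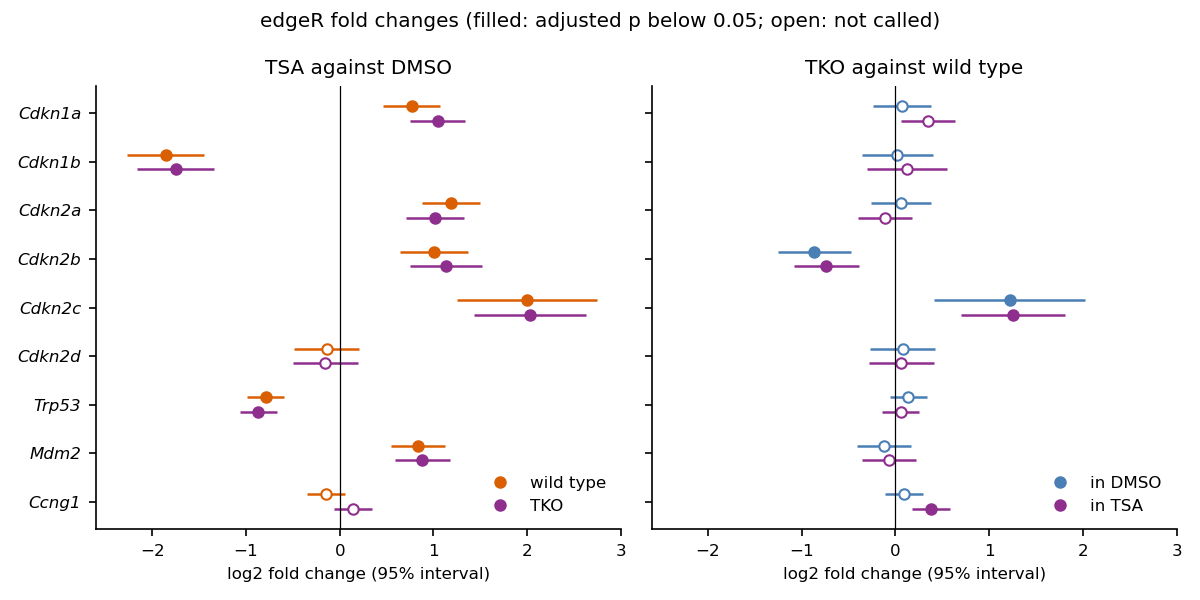
edgeR log2 fold changes (horizontal axes) with 95% intervals for the 9 genes, for TSA against DMSO on the left and TKO against wild type on the right, with filled points called and open points not called. The TSA changes of Cdkn1b, near -1.85 and -1.75, and of Cdkn2c, near 1.99 and 2.03, lie farthest from 0, while most genotype differences span 0.

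Genotype alone reached fewer of these genes than TSA did. In DMSO 1 of the 9 genes was called higher (Cdkn2c) and 1 lower (Cdkn2b) in TKO cells, where 9.62% and 10.7% of all tested genes were called. In TSA 2 were higher (Cdkn2c and Ccng1) and 1 lower (Cdkn2b), against 10.0% and 8.38% of all tested genes. The median log2 difference of the 9 genes was 0.07 in DMSO and 0.06 in TSA, against -0.01 and 0.00 over all genes tested. These counts are too small to set apart from the background shares.

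With both changes, TKO cells in TSA against wild type cells in DMSO, 5 genes were called higher and 2 lower, where 31.7% and 30.2% of all tested genes were called. Cdkn2c rose 9.49-fold, by 3.25 ± 0.32 on the log2 scale (edgeR adjusted p = 1.01e-05), with a wide interval of 2.55 to 3.94. Cdkn1a (1.11), Cdkn2a (1.08) and Mdm2 (0.77) were also higher, and Cdkn1b (-1.73) and Trp53 (-0.73) lower. Cdkn2b, which fell with the genotype and rose with TSA, differed by 0.27 (95% interval -0.10 to 0.63, adjusted p = 0.18) and was not called. Ccng1 was called at 0.24 (adjusted p = 0.0404), but not in 9 of 17 alternative fits. Among these, leaving out the second wild type DMSO library gave 0.17 (adjusted p = 0.186), the first TKO TSA library 0.19 (0.186), and 5 further single libraries adjusted p of 0.0514 to 0.0659.

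The interaction, the TSA change in TKO cells minus that in wild type cells, was called for 0 of the 9 genes by edgeR, where 1.35% of all tested genes were called. At an unadjusted p under 0.05 edgeR gave 1 gene, limma-voom 1 and DESeq2 0. Differences ranged from -0.17 for Cdkn2a (95% interval -0.60 to 0.26) to 0.29 for Ccng1 (0.00 to 0.57). For Cdkn2c the interval was wide, at -1.24 to 1.31. Its width is only approximate, since the standard error was derived from a difference near 0 (0.03), and no limit on the difference is drawn from it.

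Levels of different genes were compared per kb of exon, with all exons of a gene summed. For Cdkn2a this counts both first exons, 286 bases for Arf and 207 for p16. Its level per kb may therefore be too low, and the ratio of Cdkn2b to Cdkn2a given below too high. In wild type DMSO, Ccng1 (200.1 ± 13.1 CPM per kb, SD) was highest, followed by Trp53 (136 ± 10.4), Mdm2 (54.9 ± 5.17) and Cdkn1b (22.7 ± 3.27). Next came Cdkn2d (11.4 ± 0.916), Cdkn1a (10.9 ± 1.70), Cdkn2a (10.3 ± 0.868) and Cdkn2b (9.97 ± 1.84), which did not differ beyond their spread, and then Cdkn2c (0.656 ± 0.107). In wild type TSA Mdm2 (97.9 ± 16.8) and Trp53 (79.0 ± 3.10) were within their spread of each other, and Cdkn1b (6.26 ± 1.55) dropped to eighth place. TKO cells gave the same order of the leading 4 genes in DMSO. In TKO TSA, Mdm2 (93.4 ± 12.4) and Trp53 (82.2 ± 2.64) again came within their spread, as did Cdkn1a (23.6 ± 1.08) and Cdkn2a (21.8 ± 0.826). Cdkn1b (6.86 ± 1.40) and Cdkn2c (6.27 ± 0.997) were also within their spread of each other there. These spreads are between libraries and leave out that both genes of a pair were measured in the same library. Within each TSA library Mdm2 was above Trp53, by the ratios given below.

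Ratios within a library do not depend on the scaling between libraries. The ratio of Cdkn1a to Cdkn1b per kb was 0.591 and 0.386 in wild type DMSO and 0.439 and 0.559 in TKO DMSO. With TSA it was 2.57 and 3.51 in wild type and 3.10 and 3.88 in TKO cells. So p21 mRNA was the scarcer of the pair in all 4 DMSO libraries and the more abundant in all 4 TSA libraries. The ratio of Mdm2 to Trp53 was 0.408 and 0.398 in wild type DMSO and 0.336 and 0.339 in TKO DMSO, against 1.06 and 1.43, and 1.01 and 1.27, with TSA. The ratio of Cdkn2b to Cdkn2a separated the genotypes instead, at 0.791 to 1.03 in the 4 wild type libraries and 0.479 to 0.601 in the 4 TKO libraries.

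**Figure D3:**
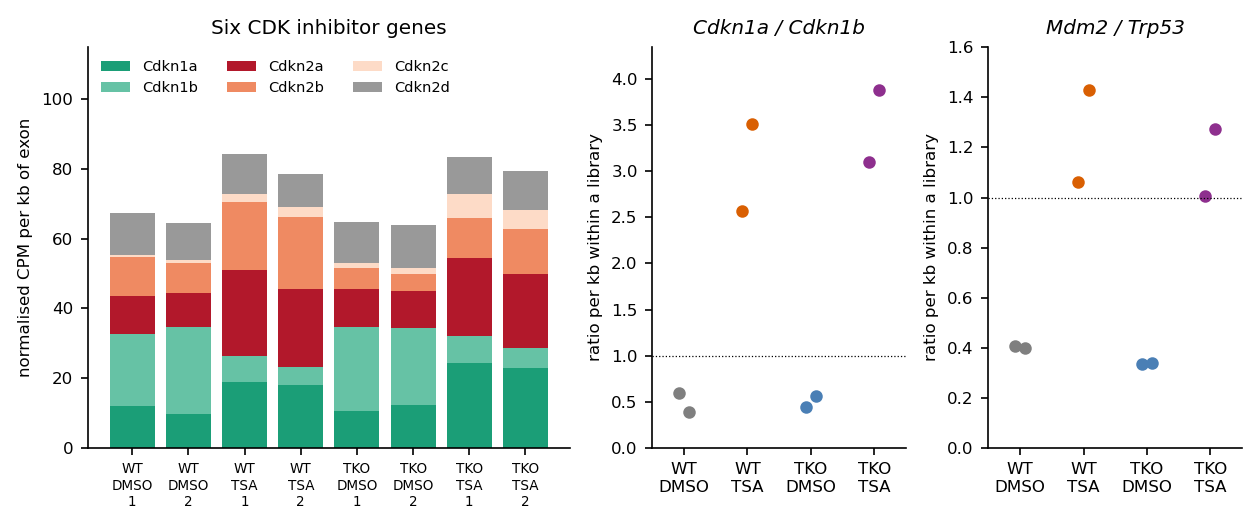
Left, stacked normalised CPM per kb of exon of the 6 CDK inhibitor genes in each library; middle and right, the ratios of Cdkn1a to Cdkn1b and of Mdm2 to Trp53 within each library, with a dotted line at 1. Both ratios are below 1 in the 4 DMSO libraries and above it in the 4 TSA libraries.

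The 6 CDK inhibitor genes among the 9 summed to 64.0 to 67.4 CPM per kb in the DMSO libraries and to 78.5 to 84.3 in the TSA libraries. Cdkn1b supplied 30.3% to 38.8% of that sum in DMSO and 6.59% to 9.40% in TSA. The INK4 genes supplied 46.2% to 51.7% in DMSO, 68.8% to 70.3% in wild type TSA and 61.4% to 63.9% in TKO TSA. These are shares of the 6 genes only and leave out Cdkn1c (p57), a CIP/KIP gene outside the 9. The mean of Cdkn1c was 83.1 CPM in wild type DMSO and 112 with TSA, and 36.0 and 142 in TKO cells. That is above Cdkn1a in every group and above Cdkn1b in all but TKO DMSO. The shares therefore do not describe all CDK inhibitor mRNA. Within the INK4 group Cdkn2c made up 2.06% (SD 0.556) in wild type DMSO and 12.3% (SD 1.85) in TKO TSA.

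The choice of scaling matters for the size of the TSA changes. When libraries were scaled by total counts, the median of all tested genes moved to 0.22 in wild type and 0.19 in TKO cells, and the called genes split into 5809 higher and 2437 lower in wild type (4266 and 4092 with TMM scaling) and 5904 and 3268 in TKO cells (4872 and 4412). Upper quartile scaling gave 5365 and 2794 in wild type. For both changes together, total counts gave 6058 higher and 3548 lower, against 5015 and 4778. The 5 increases and 2 decreases with TSA kept their direction and their call under both scalings, with Trp53 at -0.58 and Cdkn1a at 0.97 in wild type cells under total counts, to be read against the median of 0.22. Cdkn2d in wild type cells turned to 0.06 under total counts and to 0.01 under the upper quartile, without a call, as did Ccng1.

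Adjacent genes were read beside the 9. The gene 1190002F15Rik, 3566 bases beyond Cdkn1b on the same strand, fell with it, by 1.78 (edgeR adjusted p = 0.00122) in wild type and 2.32 (adjusted p = 0.000165) in TKO cells, while 2810454H06Rik on the other side, 19615 bases away, measured -0.09 in wild type cells, not called, and fell by 0.77 in TKO cells (adjusted p = 0.0135). That TKO call was lost with DESeq2 (adjusted p = 0.0686), without the second TKO DMSO library (0.0677) and without the first or the second TKO TSA library (0.0604 and 0.0555). Cpm, 1552 bases from Mdm2 on the opposite strand, rose by 3.66 and 3.94, more than Mdm2 itself. Wrap53, 1034 bases from Trp53 on the opposite strand, rose by 0.78 and 0.93 while Trp53 fell. Kri1, 494 bases from Cdkn2d, fell by 0.57 and 0.65 while Cdkn2d was not called. Mtap, 93382 bases from Cdkn2a, was not called in either genotype (0.25 and 0.10), though it was in wild type cells under total counts (0.45, adjusted p = 0.00485). The kit kept the strand, but the strand setting of the counting is not given in the sources used here.

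Profiles over the 8 libraries were compared by the root mean square difference of centred log2 CPM. Nearest to Cdkn1a were Daam1 (0.0696), Mpzl1 (0.0748) and Chst12 (0.0794), where the median over tested genes was 0.617. Nearest to Cdkn2a were Jak2 (0.0856), Snx24 (0.0875) and Galnt12 (0.0909), with a median of 0.661. Nearest to Trp53 were Ube2c (0.0458), Srm (0.0503) and Mcm5 (0.0503), with a median of 0.526. Ube2c and Mcm5 act in mitosis and in DNA replication.

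Other p53 target genes did not share 1 direction. The lists below stand against medians of 0.01 and 0.04 over all genes tested, and against 27% called higher and 25.9% lower in wild type and 30.8% and 27.9% in TKO cells. Of 37 listed targets besides the 3 described above, 13 rose and 7 fell with TSA in wild type cells (median log2 change 0.17), and 18 rose and 8 fell in TKO cells (median 0.28). Pmaip1 (Noxa) rose by 1.34 in wild type and 2.53 in TKO cells. Its interaction was called at 1.19 (edgeR adjusted p = 0.0252), a value given for the fit of all 8 libraries only. The death receptor gene Fas rose by 1.85 and 2.23, Sfn (14-3-3 sigma) by 1.75 and 2.85 and the autophagy gene Dram1 by 2.64 and 1.78, in the same order. Fas had 11 and 6 reads in TKO DMSO and Dram1 12 and 19 in wild type DMSO, so those fold changes rest on few reads. Sfn stood at 175 and 77.9 CPM in the 2 wild type DMSO libraries. In contrast, the log2 changes were -1.11 and -0.92 for Psrc1 and -1.63 and -2.04 for the cytokine gene Gdf15, whose wild type call was lost without the second wild type DMSO library (-0.87, edgeR adjusted p = 0.0898). Of 22 regulators and relatives of p53, 2 rose and 11 fell in wild type cells (median -0.33), and 3 rose and 12 fell in TKO cells (median -0.31). Among these the checkpoint kinase gene Chek1 fell by 1.01 and 0.95, and the acetyltransferase gene Kat5 by 0.83 and 0.85. Ppm1d, a phosphatase that switches p53 off, rose by 0.38 and 0.42, but in wild type cells not without the second TSA library (0.32, adjusted p = 0.078).

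The partners that the CDK inhibitors hold back mostly fell with TSA. Of 12 CDK and cyclin genes, 1 rose and 7 fell in wild type cells (median -0.36), and 1 rose and 8 fell in TKO cells (median -0.53). Ccnd1 (cyclin D1) fell by 1.60 and 2.33 and Cdk6 by 1.46 and 1.07. Of 28 E2F target genes of the G1 to S transition, 2 rose and 17 fell in wild type cells (median -0.47), and 2 rose and 15 fell in TKO cells (median -0.51), with the changes of Mybl2 at -1.51 and -1.61. The lists share Ccne1, Ccne2 and Ccna2. Of 9 other CDK inhibitor and pocket protein genes, 2 rose and 1 fell in wild type cells (median 0.15), and 5 rose and 1 fell in TKO cells (median 0.68). The retinoblastoma gene Rb1 rose by 0.97 and 1.15, and Cdk2ap1 fell by 1.82 and 1.93. Cdkn1c (p57), the CIP/KIP gene outside the 9, differed between TKO and wild type cells in DMSO by -1.20 (edgeR adjusted p = 0.00272). TSA raised it by 1.98 in TKO cells, where the 2 TSA libraries stood at 109 and 175 CPM. Its interaction was called at 1.55 (edgeR adjusted p = 0.0348), a value given for the fit of all 8 libraries only. Interaction calls over all genes varied with the fit, as given below. In wild type cells Cdkn1c measured 0.42 (edgeR adjusted p = 0.0992) with TSA. That wild type value was called without the first wild type TSA library (0.60, adjusted p = 0.0479) and under total counts (0.63, adjusted p = 0.0255).

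Genes described as controlling Cdkn1b and the Cdkn2a locus were mixed. Of 12 p27 control genes, 1 rose and 4 fell in wild type cells (median -0.17), and 4 rose and 2 fell in TKO cells (median -0.02). Both Cul1 (-0.86 and -0.70) and Rbx1 (-0.99 and -0.90), subunits of the ubiquitin ligase that turns over p27, fell. Other parts of that ligase, named after their values were seen and not refitted with libraries left out, did not all follow. Skp1a measured 0.22 (edgeR adjusted p = 0.129) in wild type cells and rose by 0.34 (adjusted p = 0.0219) in TKO cells. Skp2 fell by 0.48 and Cks1b by 0.46 in wild type cells, and they measured -0.20 and -0.15 in TKO cells, not called. Of 17 genes controlling the Cdkn2a locus, 4 rose and 6 fell in wild type cells (median 0.06), and 7 rose and 5 fell in TKO cells (median 0.04). The locus repressor Tbx3 fell by 1.48 and 2.28, the activator Ets1 rose by 1.04 and 2.16, and Id1, described as an inhibitor of Ets factors, rose by 2.19 and 1.83. Tbx2, another repressor, had few reads in DMSO, 6 and 5 in TKO and 5 and 7 in wild type cells. It rose by 2.45 in TKO cells, to 33 and 33 reads. In wild type cells it measured 1.51, a call lost with DESeq2 (1.54, adjusted p = 0.0835), without the first DMSO library (1.20, adjusted p = 0.0881) and without the first TSA library (1.48, adjusted p = 0.0531).

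**Figure D4:**
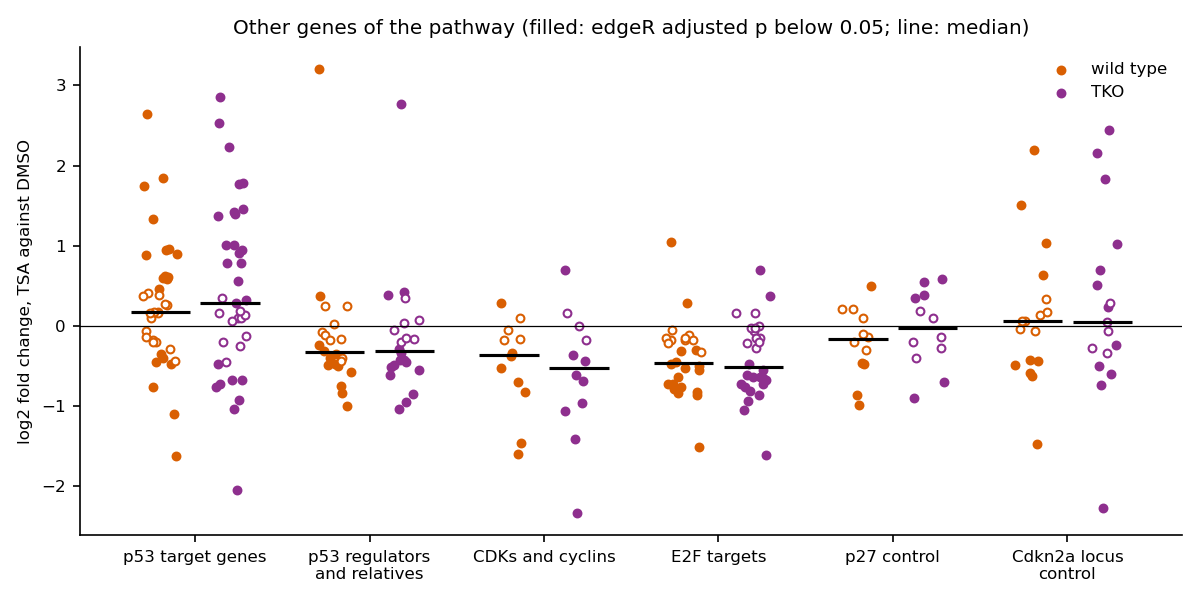
edgeR log2 fold changes with TSA (vertical axis) for the genes of 6 pathway lists without the 9 genes, in wild type and TKO cells, with filled points called, open points not called and lines at the list medians. The medians of the E2F target genes, -0.47 and -0.51, lie below 0 and those of the p53 target genes, 0.17 and 0.28, above it.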

How the data were processed

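The authors deposited raw read counts per gene, with exon coordinates and lengths, for 8 libraries of ribosomal RNA-depleted total RNA prepared with a strand-directional kit, per the labels' protocols. The submitters' processing notes list mm10, TopHat2 2.0.13, featureCounts 1.4.5-p1 and edgeR 3.22.3 without roles. The deposited counts were tested in edgeR 4.0.16 (R 4.3.3) with filterByExpr, TMM scaling and a quasi-likelihood model of 4 group means over 8 libraries, leaving 4 residual degrees of freedom. The common biological coefficient of variation was 10.3%. Tests were two-sided, with Benjamini-Hochberg adjustment over 15822 genes in each of 6 contrasts. Standard errors were derived from the F statistic and are approximate. Floors cover counting error only. Log2 CPM of replicates correlated across genes at 0.988 to 0.992, and no pair agreed within sampling noise. The 118 samples of other assays were not analysed here. Alternatives were 3 other scalings, DESeq2 1.42.0, limma-voom (limma 3.58.1), 2 filters, fits of only the groups compared, a replicate block and leaving out each library.

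The 9 genes and the gene lists were chosen with earlier results of these data known. Named genes are the members, the 3 Dnmt genes, the nearest gene with reads on each side of a member, the 3 profiles nearest to Cdkn1a, Cdkn2a and Trp53, and from each list up to 2 called increases and 2 called decreases per TSA contrast whose mean reached 1 CPM and whose groups did not overlap; only some are printed. Promoter sequences are from RefSeq (GRCm38.p6). The p53 consensus search, and its version with 1 base off, were added after the data were seen.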

Additional observations from a re-analysis of the deposited data

Results flagged for a closer look

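With TMM scaling, Ccng1 had opposite directions with TSA in the 2 genotypes, neither of them called. Both TSA libraries lay below both DMSO libraries in wild type cells and above both in TKO cells, and the difference between the TSA changes was 0.29 on the log2 scale (95% interval 0.00 to 0.57). The interaction term of edgeR's quasi-likelihood model over all genes had an adjusted p of 0.343, so the difference was not called. The opposite directions depend on the scaling, since the wild type change was 0.06 under total counts and 0.01 under the upper quartile, the same sign as in TKO cells (0.29 and 0.22).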

How the results depend on the processing

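Over 17 alternatives, 885 log2 changes of the 9 genes kept their side of the threshold, 21 lost a call, 3 gained one and 0 called values changed direction. The 7 genes called with TSA in each genotype were called in all 17. For TKO against wild type in DMSO, DESeq2, limma-voom and a fit of only the groups compared each called 1 of the 9 genes instead of 2. Cdkn1a in TKO against wild type with TSA was called without the second wild type DMSO library (0.35, adjusted p = 0.0486), and Cdkn2b for both changes under total counts (0.44, adjusted p = 0.0426). The interaction was called for 213 genes by edgeR (139 higher, 74 lower), 387 by DESeq2, 107 by limma-voom and 488 without a filter, and upper quartile scaling split its calls into 96 higher and 85 lower. Leaving out 1 library at a time gave 5780 to 8279 called genes for TSA in wild type (8358 with all), 7123 to 9840 in TKO, 1458 to 3331 for TKO in DMSO with 0 to 2 of the 9 genes, 941 to 3443 for TKO in TSA with 1 to 4, 7898 to 9650 for both changes with 6 to 7, and 10 to 410 for the interaction. Where this left 1 library in a group, that library was assumed to vary like the others. Same-numbered libraries deviated together with r of 0.0673 to 0.325 over the 6 pairs of groups, and the labels name no shared batch, so the numbers were not taken as pairing. With the replicate number as a block the interaction was called for 633 genes, and the counts of the 9 genes called were 7, 7, 2, 3, 7 and 0 over the 6 contrasts. Cdkn2c, with 9 and 10 reads in wild type DMSO, is the member limited by depth.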
